A study of Homo sapiens with 14 samples.

Results

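Messenger RNA of 8 genes of the caspase machinery, CASP2, CASP6, CASP8, CASP9, CFLAR, XIAP, BIRC6 and DIABLO, was followed through nutrient starvation and the silencing of NUPR1, RELA or RELB in MiaPaCa2, an established human pancreatic cancer cell line. The members were taken by their gene symbol in the array annotation, and the list was chosen with earlier results of these data known. They are 8 of the 18377 genes with a transcript cluster (the probes that an array groups for one transcript) of 1 symbol. Their clusters are 9 of the 28869 on the array, because CFLAR has 2, and the brighter cluster stood for the gene.

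Caspases are proteases that dismantle a dying cell and that cells hold as inactive precursors. Initiator caspases are switched on by assembly on a platform: CASP8 at death receptors through FADD, CASP9 on the APAF1 apoptosome after cytochrome c leaves the mitochondria, and CASP2 on the PIDD1 platform. Executioner caspases such as CASP6, which cleaves nuclear lamins, are then cut and activated. CFLAR (cFLIP) resembles CASP8 without its protease activity and blocks or tunes it at death receptors, XIAP binds active caspases and inhibits them, BIRC6 is a very large ubiquitin ligase that marks caspases and DIABLO for degradation, and DIABLO (SMAC) is released from mitochondria and displaces caspases from such inhibitors. Since caspases are governed by cleavage and binding, messenger RNA levels say nothing of their activity, which was not measured here.

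RNA was hybridized to 14 Affymetrix whole-transcript arrays, 1 array per combination of siRNA and condition and so without replicates. In the NF-kB set of 6 arrays, cells received a scrambled siRNA (siCtrl) or an siRNA against RELA (siRelA) or RELB (siRelB), subunits of the transcription factor NF-kB, and then spent 9 h in EBSS or in mock. In the Nupr1 set of 8 arrays, cells received siCtrl or an siRNA against NUPR1 (siNupr1), a stress-induced chromatin protein, and were taken at 0 h or after 3, 6 or 9 h in EBSS. EBSS is a balanced salt solution that, per the labels, lacks glucose, amino acids and growth factors, and the design asks which survival genes depend on NUPR1 and on each NF-kB subunit. All cells were transfected with INTERFERin, a lipid reagent. The labels do not give the composition of mock or say that the arrays come from separate cultures, so p-values measure only the spread between these arrays. They name DMEM, the growth medium, in the titles of the 0 h arrays but EBSS in their source field, and for the 9 h siNupr1 array the siRNA in the title is not the one in the source and description fields. That array was kept as siNupr1, and results are also given without it where that changed them.

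The RelA and RelB subunits bind kB motifs, so the RefSeq promoter windows of the members (GRCh38.p14, 250 bases before to 50 after an annotated start) were searched on both strands for the kB consensus motif. All 8 genes had windows, 21 in all, and 3 windows (14.3%) held a match, against 3956 of all 35116 windows in the table (11.3%). The 250 bases before those 3 starts are shown because they hold the matches, printed in capitals.
CFLAR, chr2:201118466-201118715, plus strand: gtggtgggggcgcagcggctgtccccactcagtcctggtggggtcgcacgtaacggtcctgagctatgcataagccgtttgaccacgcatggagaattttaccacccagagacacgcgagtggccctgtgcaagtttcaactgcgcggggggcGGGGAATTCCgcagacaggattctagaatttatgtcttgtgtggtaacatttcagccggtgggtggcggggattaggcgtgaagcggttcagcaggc
CASP2, chr7:143289338-143289587, plus strand: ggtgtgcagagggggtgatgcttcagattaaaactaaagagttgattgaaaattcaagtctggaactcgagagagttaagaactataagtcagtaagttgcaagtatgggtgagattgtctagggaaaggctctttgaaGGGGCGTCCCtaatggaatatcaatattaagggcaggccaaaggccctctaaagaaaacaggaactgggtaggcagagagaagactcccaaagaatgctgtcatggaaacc
BIRC6, chr2:32356773-32357022, plus strand: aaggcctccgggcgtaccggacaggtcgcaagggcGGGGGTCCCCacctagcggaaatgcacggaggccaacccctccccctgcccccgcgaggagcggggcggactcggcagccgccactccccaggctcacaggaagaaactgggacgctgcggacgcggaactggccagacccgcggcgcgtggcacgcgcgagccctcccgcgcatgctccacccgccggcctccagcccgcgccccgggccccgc
The match began 97 bases before the start in CFLAR, 111 in CASP2 and 215 in BIRC6. In CFLAR and BIRC6 it overlapped a GC box (GGGCGG, found in 45.0% of all windows). The CASP2 window is 1 of 2 for that gene, the CFLAR window 1 of 4 and the BIRC6 window 1 of 2, and which start was in use was not measured. TGATGNAA, the core of the amino acid response element, had 0 matches in the 21 windows and was in 3.62% of all windows. A match describes letters, not binding. Of the genes with a match CFLAR and CASP2 were called lower with siRelA and BIRC6 was not called, and DIABLO, also called lower, had 0 matches in its 4 windows.

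The values are log2 levels on which 1 unit is a doubling, with array medians from 5.67 to 5.84. Silencing was seen in the targeted genes: NUPR1 differed by -0.87 ± 0.10 (SE, 4 pairs) with siNupr1, RELA by -2.49 ± 0.13 (2 pairs) with siRelA, and RELB by -1.32 ± 0.17 (2 pairs) with siRelB. Some levels of the other targets were lower too. RELB was lower with siNupr1 than with siCtrl at every time (6.69 against 7.23 at 0 h, 7.74 against 8.94 at 9 h). NUPR1 was lower with siRelA and siRelB than with siCtrl in both media (in EBSS 6.49 and 6.29 against 6.84). RELA in EBSS was at 9.19 with both siRelB and siCtrl. An additive linear model (limma) gave the differences between siRNAs and between conditions, from pairs of arrays alike in everything else. The contrast of starvation between the sets was one such difference minus another. The slope over hours and the changes between media came from the same model with terms added for them. The standard error (SE) is not the spread of those pairs. It comes from the misfit of a gene to the model over all arrays of both sets, moderated across genes. The additive model takes a difference as the same in every pair, so unequal pairs anywhere add to that misfit. With the terms for the changes between media added, the arrays of the NF-kB set are fitted exactly. The SE of those changes therefore comes from the misfit in the Nupr1 set, moderated across genes, and not from any spread within the NF-kB set. For CASP2 the SE was 0.12 for comparisons of 2 pairs in either set. A gene is called higher or lower below where its Benjamini-Hochberg adjusted p, over 11026 genes, was under 0.05; the other genes, with a mean level under 5.8, were left out as too dim. CASP6 was among these, so 7 of the 8 members were tested. The arrays measure whole cultures on a common scale, so neither the number of cells nor the total RNA per cell can be seen in these values. Of 6 epithelial markers 4 passed the filter on low levels (KRT8, KRT18, KRT19 and KRT7) while EPCAM and CDH1 did not, and both mesenchymal markers, VIM and ZEB1, passed. Of markers of other cells, 3 of 5 for fibroblasts (not DCN or LUM), 2 of 5 for leukocytes (CD14 and CD68, not PTPRC, CD3E or CD79A), 0 of 4 for endothelium and 1 of the 3 measured for acinar cells (CELA3A, from 6.05 to 6.84) passed it. Their part in the results was not tested.

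**Figure D1:**
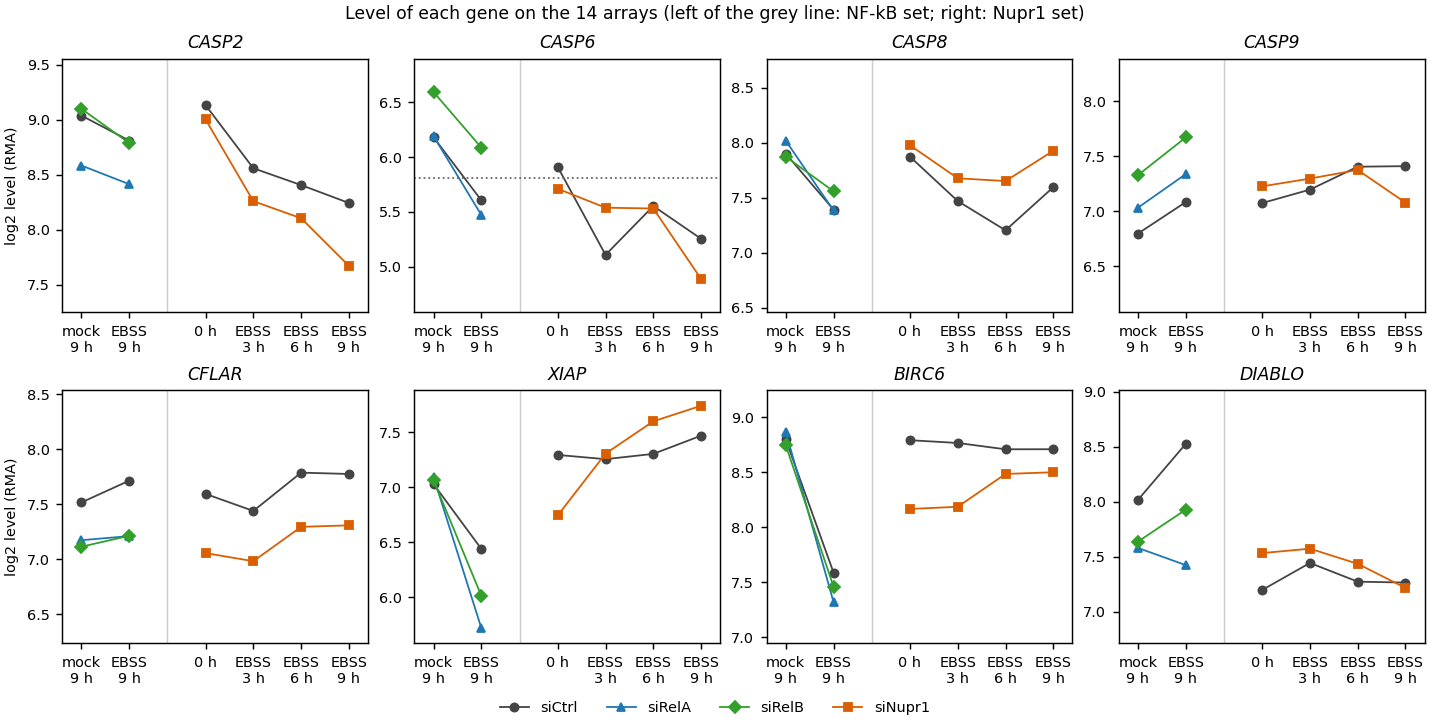
Log2 level (vertical axis, RMA values) of each member on the 14 arrays, with 1 point per array. The vertical axes of all panels cover the same number of log2 units, but each is centred on the values of its own gene. Left of the grey line are the 6 arrays of the NF-kB set (mock and EBSS, both at 9 h) and right of it the 8 arrays of the Nupr1 set; colour and symbol give the siRNA, lines join arrays of one siRNA, and the dotted line is the filter level of 5.8. BIRC6 and XIAP drop from mock to EBSS on the left and not from 0 h to EBSS on the right, CASP2 declines on the right, and CFLAR is lower with each gene-specific siRNA than with siCtrl.

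EBSS against mock left BIRC6, XIAP and CASP8 lower and CASP9 higher, whereas in the time course CASP2 was lower at every time in EBSS, CASP8 was lower at 6 h and XIAP was higher at 9 h. CFLAR was lower with each of the 3 siRNAs, BIRC6 and CASP2 also with siNupr1, and DIABLO with both NF-kB siRNAs. In EBSS against mock 1 of the 7 tested members was called higher and 3 lower, in a comparison where 22.6% of all tested genes were called higher and 29.3% lower. At 3 h against 0 h it was 0 higher and 1 lower (all tested genes 3.27% and 9.07%), at 6 h 0 and 2 (7.65% and 15.7%), at 9 h 1 and 1 (9.19% and 15.1%), and at 9 h against 3 h 0 and 1 (4.68% and 2.66%).

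With siNupr1 1 member was called higher and 3 lower, beside 9.86% and 8.58% of all tested genes. For siRelA the counts were 0 and 3 (10.1% and 11.4% of all), for siRelB 1 and 2 (7.58% and 8.55%), and for siRelB against siRelA 1 and 0 (5.46% and 4.61%). The siRelA and siRelB comparisons share their siCtrl arrays and are not independent of each other. The contrast of starvation between the sets (9 h against 0 h minus EBSS against mock) was called higher for 2 members and lower for 1, beside 16.4% and 8.11% of all. Neither the slope of the siNupr1 difference over hours (0% of all genes called), nor the change of the siRelA (0.0363%) or siRelB (0%) difference between EBSS and mock was called for any member. For the slope, limma gave 2149 genes with an unadjusted p under 0.05, and for the siRelB change 401. With 7 members these counts are small, and the shares of all genes are given so that they can be read against them. The fit for the changes between media leaves no misfit within the NF-kB set, so its lack of calls is not a test against a spread in that set.

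When the arrays were quantile normalized once more, the share of calls that were higher moved from 26.5% to 42.7% at 3 h, from 32.7% to 44.4% at 6 h and from 63.8% to 52.5% at 9 h against 3 h. No call on a member was lost or turned by it.

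**Figure D2:**
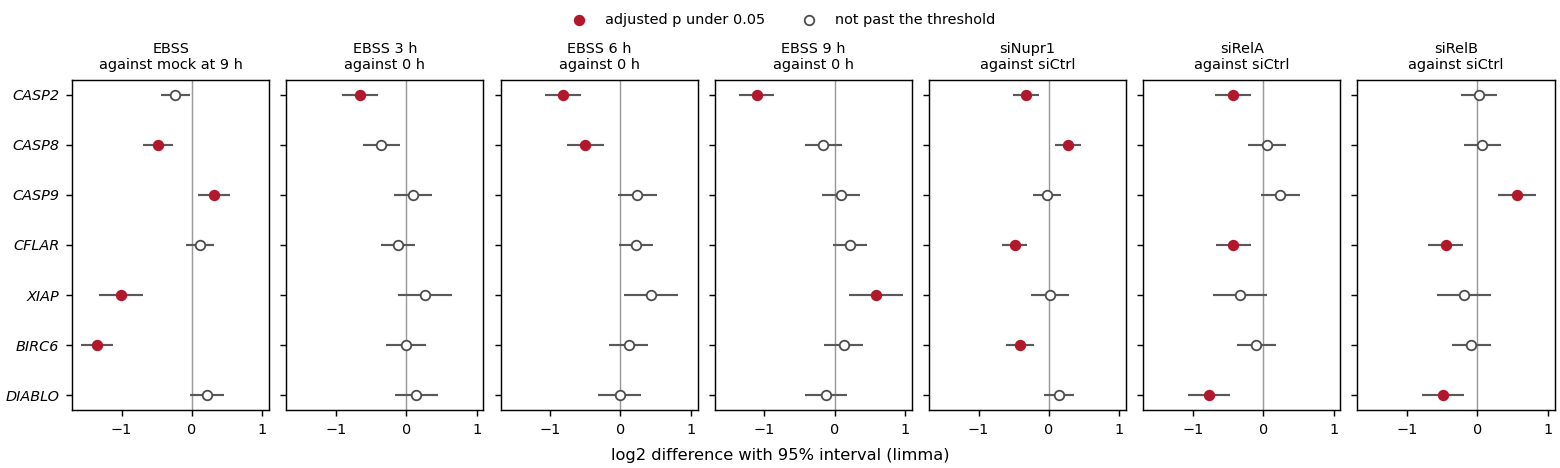
Log2 difference (horizontal axis) of the 7 tested members in 7 comparisons, with the 95% confidence interval from limma as a bar; filled red points have an adjusted p under 0.05 and open points do not. The farthest point is BIRC6 in EBSS against mock at -1.35, and CFLAR lies left of 0 with siNupr1 (-0.49), siRelA (-0.42) and siRelB (-0.45).

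Of the initiator caspases, CASP2 declined through the time course. In the Nupr1 set it was at 9.13 at 0 h and then at 8.56, 8.41 and 8.24 after 3, 6 and 9 h in EBSS with siCtrl, and at 9.00, 8.26, 8.10 and 7.67 with siNupr1. Both siRNA groups held their highest value at 0 h and their lowest at 9 h, and no EBSS array of this set reached a 0 h array. In the model CASP2 was lower than at 0 h by -0.66 ± 0.12 at 3 h (adjusted p = 0.00131), -0.81 ± 0.12 at 6 h (9.33e-05) and -1.11 ± 0.12 at 9 h (1.74e-06; SE, 2 pairs each), the last a 2.16-fold difference. These 3 calls held under all 21 other settings. From 3 h to 9 h it was lower by -0.45 ± 0.12 (adjusted p = 0.0288, 2 pairs), a call that was lost with array weights (adjusted p = 0.0572) and without the siCtrl 3 h array (-0.47), the siNupr1 3 h array (-0.43) or the siNupr1 9 h array (-0.29), where adjusted p ran from 0.194 to 0.244 (range over all settings 0.0130 to 0.244).

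In the NF-kB set CASP2 was at 9.04 in mock and 8.81 in EBSS with siCtrl, at 8.58 and 8.41 with siRelA, and at 9.10 and 8.79 with siRelB. EBSS was below mock in all 3 pairs, but the difference of -0.24 ± 0.10 (SE, 3 pairs) missed the threshold (adjusted p = 0.0526, between 0.0235 and 0.217 over the other settings); 7 of these 21 settings called it, among them the fits without the siCtrl 0 h, siCtrl 9 h, siNupr1 0 h or siNupr1 9 h array, each at -0.24. The decline from 0 h to 9 h was steeper than the difference from mock by -0.87 ± 0.16 (adjusted p = 0.000399). That contrast held in all 20 settings that could give it.

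CASP2 was also lower with siNupr1 and with siRelA. With siNupr1 it was lower at all 4 times, by -0.33 ± 0.09 (adjusted p = 0.0122, 4 pairs), a call lost on leaving out either 3 h array, siCtrl or siNupr1 (each -0.33, adjusted p = 0.0614 and 0.0611, range over settings 0.00434 to 0.0614). It was lower with siRelA by -0.43 ± 0.12 (adjusted p = 0.0164, 2 pairs) and did not differ past the threshold with siRelB (0.02 ± 0.12, 95% interval -0.23 to 0.27). Set directly against siRelA, siRelB was higher by 0.45 ± 0.12 (adjusted p = 0.0233, 2 pairs). Both of these calls rest on 2 pairs: without any 1 of the siCtrl and siRelA arrays the first ran from -0.48 to -0.38 with adjusted p from 0.0618 to 0.157 (range over settings 0.00574 to 0.157), and without any 1 of the siRelA and siRelB arrays the second ran from 0.39 to 0.50 with adjusted p from 0.0818 to 0.264 (range 0.00870 to 0.264). Ordered by level, 6 of the 13 steps between neighbouring arrays exceeded the residual SD of 0.12, and the largest, 0.43, set the siNupr1 9 h array below all others.

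CASP8, the initiator at death receptors, was lower in EBSS than in mock. It stood at 7.90 in mock and 7.39 in EBSS with siCtrl, at 8.02 and 7.38 with siRelA, and at 7.87 and 7.56 with siRelB, so that all mock arrays were above all EBSS arrays. The difference was -0.49 ± 0.10 (adjusted p = 0.000677, SE, 3 pairs) and was called in all 21 other settings. With siCtrl in the time course it went from 7.87 at 0 h to 7.47, 7.20 and 7.60 at 3, 6 and 9 h, and with siNupr1 from 7.98 to 7.68, 7.65 and 7.93. The lowest value of each group was at 6 h, and at 9 h the siNupr1 array was close to its 0 h level while the siCtrl array was still below it. At 6 h CASP8 was lower by -0.50 ± 0.13 (adjusted p = 0.00739, 2 pairs), which was lost without the siCtrl 0 h array (-0.39, adjusted p = 0.133) or the siCtrl 6 h array (-0.38, adjusted p = 0.201), with 0.00430 the smallest over the settings. At 3 h it differed by -0.35 ± 0.13 (adjusted p = 0.0751) and at 9 h by -0.16 ± 0.13 (0.40), neither past the threshold.

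CASP8 was the member called higher with siNupr1: each of the 4 time points had siNupr1 above siCtrl, by 0.10, 0.21, 0.45 and 0.33 in order of time. The model gave 0.27 ± 0.09 (adjusted p = 0.0386, SE, 4 pairs), close to the threshold. The call was lost without the filter on dim genes (adjusted p = 0.0636) and without any 1 of the 6 arrays at 3, 6 and 9 h (0.21 to 0.29, adjusted p from 0.0734 to 0.204; range over settings 0.0153 to 0.204). With siRelA (0.06 ± 0.13, 95% interval -0.21 to 0.32) and siRelB (0.07 ± 0.13, -0.19 to 0.33) it missed the threshold. Only 2 of the 13 steps in its order of levels exceeded the residual SD of 0.13.

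CASP9, the initiator of the mitochondrial route, was the member called higher in EBSS than in mock and with siRelB. Its levels were 6.80 in mock and 7.08 in EBSS with siCtrl, 7.03 and 7.34 with siRelA, and 7.33 and 7.67 with siRelB. EBSS was above mock in each pair, and siRelB was above siCtrl in each medium. The starvation difference of 0.31 ± 0.11 (adjusted p = 0.0204, SE, 3 pairs) did not pass without any 1 of the 6 arrays of this set (0.30 to 0.32, adjusted p from 0.0587 to 0.0910; smallest over the settings 0.00674). The siRelB difference was 0.56 ± 0.13 (adjusted p = 0.00546, 2 pairs), a 1.47-fold rise, and likewise did not pass without any 1 of its 4 arrays (0.54 to 0.58, adjusted p from 0.0510 to 0.0789; smallest 0.00140). With siRelA it was 0.24 ± 0.13 (adjusted p = 0.208), and siRelB against siRelA was 0.31 ± 0.13 (adjusted p = 0.142), so the difference between the subunits was not past the threshold. In the time course the siCtrl arrays read 7.08, 7.20, 7.41 and 7.41 and the siNupr1 arrays 7.23, 7.30, 7.38 and 7.08 from 0 h to 9 h. No comparison in that set was called for CASP9.

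The executioner CASP6 was too dim to be tested with the others, with a mean level just under the filter. It read 6.18 in mock and 5.61 in EBSS with siCtrl, 6.19 and 5.47 with siRelA, and 6.59 and 6.09 with siRelB. In the Nupr1 set it read 5.91, 5.11, 5.55 and 5.26 with siCtrl and 5.71, 5.54, 5.53 and 4.89 with siNupr1 from 0 h to 9 h. Every EBSS array was below the mock or 0 h array of the same siRNA. In a fit of all 18377 genes without the filter it was lower in EBSS than in mock by -0.60 ± 0.14 (adjusted p = 0.00226, SE, 3 pairs) and at 9 h than at 0 h by -0.74 ± 0.17 (adjusted p = 0.00516, 2 pairs). These are the only comparisons of that fit that were past the threshold for CASP6, and the difference between them was not (-0.14 ± 0.21, adjusted p = 0.728).

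CFLAR, the regulator of CASP8 and a textbook NF-kB target, was lower with every gene-specific siRNA and showed little response to starvation. With siCtrl it was at 7.52 in mock and 7.72 in EBSS, with siRelA at 7.17 and 7.21, and with siRelB at 7.12 and 7.21. In the time course it was at 7.60, 7.44, 7.79 and 7.78 with siCtrl and at 7.06, 6.98, 7.30 and 7.31 with siNupr1. The siCtrl arrays did not overlap with the silenced arrays in either set, and the 4 siNupr1 pairs were almost equal, at -0.54, -0.46, -0.49 and -0.47.

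The siNupr1 difference of CFLAR was -0.49 ± 0.08 (adjusted p = 0.000547, SE, 4 pairs), a 1.40-fold fall, and stayed past the threshold in all 22 other settings. With siRelA it was -0.42 ± 0.12 (adjusted p = 0.0131) and with siRelB -0.45 ± 0.12 (0.0112; 2 pairs each), and siRelB against siRelA was -0.03 ± 0.12 (95% interval -0.27 to 0.22). Both NF-kB calls were lost without any 1 of the 4 arrays they rest on: the siRelA difference then ran from -0.49 to -0.36 (adjusted p from 0.0573 to 0.167, range over settings 0.00858 to 0.167), and the siRelB difference from -0.52 to -0.39 (0.0535 to 0.162). EBSS against mock was 0.11 ± 0.10 (adjusted p = 0.327, 95% interval -0.09 to 0.31), and no time in EBSS was past the threshold against 0 h. With a trend over gene span removed, EBSS against mock for CFLAR was 0.27 (adjusted p = 0.0226, the smallest over settings that reached 0.658). The largest residual of CFLAR in the model was 0.04, against a residual SD of 0.12.

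The other CFLAR cluster lies under the filter and was looked at after the data were seen. In the NF-kB set its values were 4.18 in mock and 4.18 in EBSS with siCtrl, 3.56 and 3.28 with siRelA, and 4.58 and 3.57 with siRelB. It read 6.32, 6.48, 6.80 and 6.58 with siCtrl and 4.82, 4.78, 6.15 and 5.68 with siNupr1. The arrays of the Nupr1 set lay above all arrays of the NF-kB set in this cluster (lowest 4.78, highest 4.58), while in the brighter cluster the ranges of the sets overlapped. Put in place of the brighter cluster, it gave -1.19 ± 0.17 with siNupr1 (adjusted p = 0.000109) and -0.76 ± 0.24 with siRelA (0.0258), both lower as before. With siRelB it gave -0.10 ± 0.24 (adjusted p = 0.826), so that the siRelB call was lost, as it was with the mean of both clusters (-0.28, adjusted p = 0.266; range of this result over all settings 0.00465 to 0.826). At 6 h it was higher than at 0 h by 0.91 ± 0.24 (adjusted p = 0.00838), as was the mean of both clusters by 0.56 (0.0134; the range over all settings reached 0.501). The contrast of starvation between the sets was 0.99 ± 0.30 (adjusted p = 0.0221) in this cluster and 0.11 ± 0.15 in the brighter one. Which transcripts each cluster covers is not given in the sources used here.

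**Figure D3:**
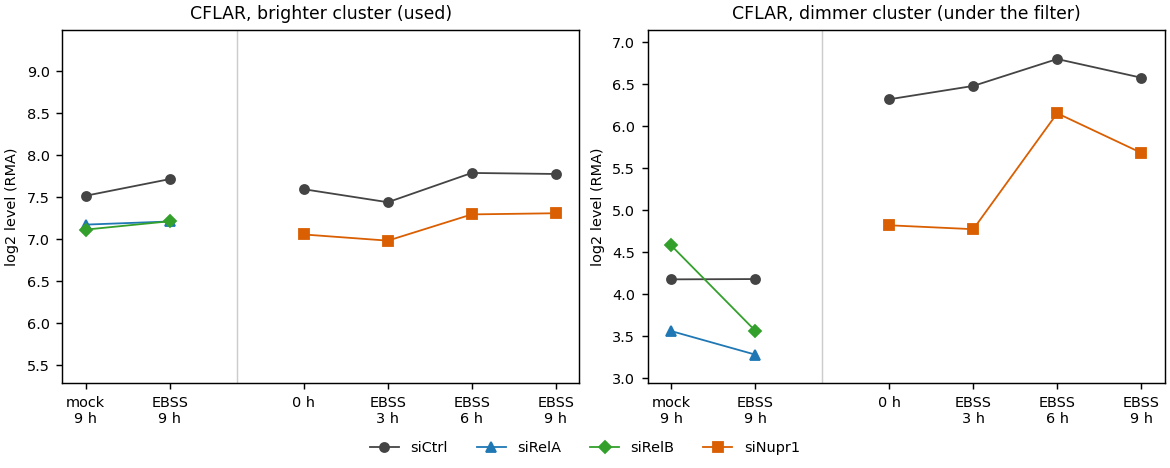
Log2 level (vertical axis, RMA values) of the 2 CFLAR clusters on the 14 arrays, with the NF-kB set left of the grey line and the Nupr1 set right of it. The vertical axes of both panels cover the same number of log2 units, but each is centred on the values of its own cluster. Colour and symbol give the siRNA. In the brighter cluster siRelA and siRelB arrays lie together under siCtrl; in the dimmer one the siRelB mock array, at 4.58, lies above the siCtrl arrays at 4.18.

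Of the inhibitors, BIRC6 had the largest difference of all members in EBSS against mock. Its level fell from 8.80 in mock to 7.59 in EBSS with siCtrl, from 8.87 to 7.32 with siRelA, and from 8.74 to 7.46 with siRelB. In the time course it was at 8.79, 8.76, 8.71 and 8.71 with siCtrl from 0 h to 9 h, and at 8.17, 8.18, 8.48 and 8.50 with siNupr1. The 3 EBSS arrays of the NF-kB set lay below all other arrays, under a step of 0.58 that was the largest in its order of levels, while in the Nupr1 set BIRC6 with siCtrl differed by -0.08 between 9 h and 0 h. EBSS against mock gave -1.35 ± 0.11 (adjusted p = 9.09e-09, SE, 3 pairs), a 2.55-fold fall, and 9 h against 0 h gave 0.13 ± 0.13 (adjusted p = 0.563, 95% interval -0.15 to 0.40, 2 pairs). The difference between these, 1.47 ± 0.17 (adjusted p = 5.66e-06), was past the threshold in all 20 settings that could give it.

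BIRC6 was also lower with siNupr1, by -0.41 ± 0.09 (adjusted p = 0.00533, SE, 4 pairs). The siNupr1 arrays, from 8.17 to 8.50, lay below the siCtrl arrays, from 8.71 to 8.79, and the pairs were farther apart at 0 h and 3 h than at 6 h and 9 h. The slope of that difference over hours was 0.05 ± 0.02 per hour (adjusted p = 0.209), not past the threshold. The siNupr1 call was lost when either 3 h array, siCtrl or siNupr1, was left out (each -0.35, adjusted p = 0.0623 and 0.0620; smallest over the settings 0.000413). With siRelA the difference was -0.10 ± 0.13 (95% interval -0.38 to 0.18) and with siRelB -0.09 ± 0.13 (-0.37 to 0.19). Over the 14 arrays, with set means removed, the genes with the pattern most like that of BIRC6 were TRIM37 (Pearson r = 0.977), NAA25 (0.973) and SPG11 (0.972), which share arrays and scaling with it.

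XIAP, like BIRC6, was lower in EBSS in the NF-kB set, and it was called higher at 9 h in the time course. It was at 7.03 in mock and 6.44 in EBSS with siCtrl, at 7.09 and 5.72 with siRelA, and at 7.06 and 6.01 with siRelB. The mock arrays lay close together and above all EBSS arrays, which were farther apart. EBSS against mock was -1.0 ± 0.15 (adjusted p = 1.52e-05, SE, 3 pairs), a 2.01-fold fall called in all 21 other settings. The siRelA pair was farther apart than the siCtrl pair. That change of the siRelA difference between media was -0.78, and for siRelB it was -0.46. Neither was past the threshold, in a fit that has no spread within the NF-kB set to measure them against.

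In the Nupr1 set XIAP was at 7.29, 7.26, 7.30 and 7.47 with siCtrl and at 6.74, 7.31, 7.60 and 7.74 with siNupr1. The siNupr1 array at 0 h was the lowest of the set, and the siCtrl arrays stayed close to each other up to 6 h. At 9 h XIAP was called higher than at 0 h by 0.59 ± 0.18 (adjusted p = 0.0242, SE, 2 pairs). Without the siNupr1 0 h array the difference was 0.21 (adjusted p = 0.526), without the siNupr1 9 h array 0.42 (0.243), and with array weights it kept its value but not its call (0.0940; smallest over settings 0.00125). Without the siCtrl 0 h array it was 0.96, and the difference at 6 h, 0.43 ± 0.18 (adjusted p = 0.0949), became 0.81 and passed (0.00707; settings up to 0.887). The contrast of starvation between the sets was 1.59 ± 0.24 (adjusted p = 6.30e-05) and was called in all 20 settings that could give it, with values from 1.21 to 1.97. XIAP against siCtrl was 0.02 ± 0.13 with siNupr1, -0.33 ± 0.18 with siRelA and -0.20 ± 0.18 with siRelB, none past the threshold (adjusted p = 0.954, 0.231 and 0.544). Its slope of the siNupr1 difference was 0.09 ± 0.03 per hour (adjusted p = 0.169), called only with each set fitted alone (0.0387; settings up to 0.796).

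**Figure D4:**
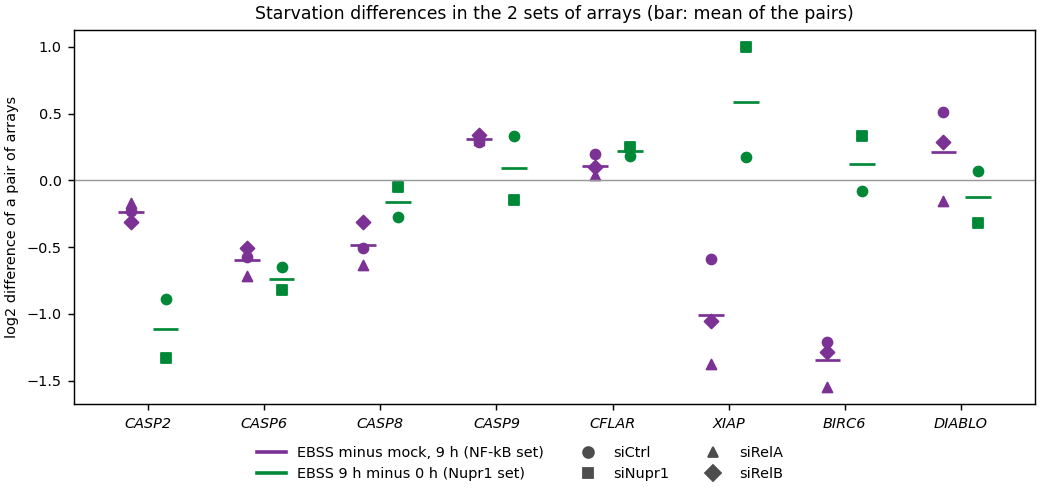
Log2 difference of single pairs of arrays (vertical axis) for each member: purple, EBSS minus mock at 9 h in the NF-kB set (3 pairs); green, EBSS 9 h minus 0 h in the Nupr1 set (2 pairs). The symbol gives the siRNA and the short bar the mean of the pairs. BIRC6 and XIAP lie below 0 in every purple pair, the lowest at -1.55 and -1.37, while only the BIRC6 siCtrl pair of their green pairs lies below 0, at -0.08; CASP2 is lower in both green pairs than in any purple pair.

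DIABLO, the mitochondrial antagonist of these inhibitors, was lower with both NF-kB siRNAs. With siCtrl it was at 8.02 in mock and 8.53 in EBSS, with siRelA at 7.58 and 7.42, and with siRelB at 7.64 and 7.93. The siCtrl EBSS array was the highest of all 14 arrays, 0.51 above the next. In the time course DIABLO was at 7.20, 7.44, 7.27 and 7.26 with siCtrl and at 7.53, 7.57, 7.43 and 7.22 with siNupr1, so that the siCtrl arrays of the sets did not overlap. With siRelA it was lower by -0.77 ± 0.14 (adjusted p = 0.000757, SE, 2 pairs), a 1.71-fold fall, and with siRelB by -0.49 ± 0.14 (adjusted p = 0.0251, 2 pairs).

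Both DIABLO differences were larger in EBSS than in mock: -1.10 against -0.44 with siRelA and -0.60 against -0.38 with siRelB. The change between media was not past the threshold with either siRNA, in a fit that has no spread within the NF-kB set. Without the siCtrl EBSS array the siRelA difference was -0.55 (adjusted p = 0.0547) and without the siRelA EBSS array -0.49 (0.0656; smallest over the settings 0.000231), both calls lost. The siRelB difference was lost without the siCtrl EBSS array (-0.27, adjusted p = 0.451), the siRelB EBSS array (-0.55, 0.105) or the siRelB mock array (-0.43, 0.229; smallest 0.00920). DIABLO did not pass in EBSS against mock (0.21 ± 0.12, adjusted p = 0.129); without the siRelA EBSS or the siRelA mock array this was 0.40 and passed (0.0208 and 0.0205; settings up to 0.700). At 3, 6 and 9 h against 0 h its differences were 0.14, -0.01 and -0.12, and with siNupr1 0.14 ± 0.10 (adjusted p = 0.365). The pattern of DIABLO over the arrays was less closely shared than that of BIRC6, with RPL35A the most like it (Pearson r = 0.879).

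The sets differed in some of the members even where the labels match. For siCtrl after 9 h in EBSS, the array of the NF-kB set and that of the Nupr1 set read 7.59 and 8.71 for BIRC6, 6.44 and 7.47 for XIAP, and 8.53 and 7.26 for DIABLO. Of all tested genes, 6.68% were farther apart than BIRC6, 8.51% than XIAP and 4.56% than DIABLO. CFLAR, at 7.72 and 7.78, differed less than 91.9% of genes. For the remaining members, 31.6% of genes were farther apart than CASP2, 55.3% than CASP6, 73.7% than CASP8 and 58.1% than CASP9. The siCtrl reference arrays, mock and 0 h, read 8.80 and 8.79 for BIRC6, 7.03 and 7.29 for XIAP, and 8.02 and 7.20 for DIABLO, so that DIABLO was apart in the references too. Each set has its own reference condition, and set, reference and any difference in handling cannot be told apart.

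Gene length moved with the starvation difference in one set. Across 11019 tested genes with a span in the GRCh38.p14 table, longer genes were lower in EBSS against mock (Spearman rho = -0.424; genes of one fit are not independent of each other), and this was nearly absent at 9 h against 0 h (-0.0226). BIRC6 spans 262 kb, longer than 97.1% of genes, CFLAR 60.5 kb, XIAP 54.3 kb, CASP8 54.2 kb, CASP9 33.5 kb, DIABLO 19.8 kb and CASP2 19.3 kb. In the longest of 20 bins of 551 genes the median difference was -0.24 and the 10th percentile -0.95, and BIRC6 lay beyond that at -1.35. XIAP, at -1.0, lay beyond the 10th percentile of its bin (-0.90), CASP8 lay within the band of that bin, and CFLAR was above the median of its own bin (0.11 against -0.23). With the trend over span removed, BIRC6 was at -1.11 (adjusted p = 1.17e-07), XIAP at -0.86 (9.81e-05) and CASP8 at -0.34 (0.00922), all still called. Their differences between the sets remained called for BIRC6 (1.22) and XIAP (1.45).

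**Figure D5:**
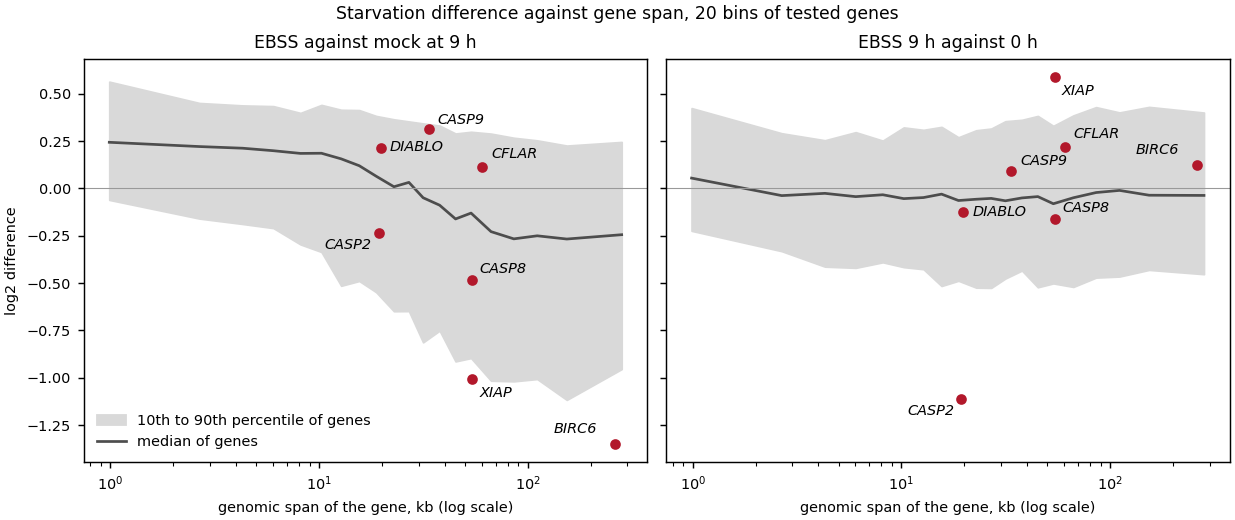
Log2 difference (vertical axis) against genomic span in kb (horizontal log axis) for EBSS against mock (left) and EBSS 9 h against 0 h (right). The line is the median and the band the 10th to 90th percentile of tested genes in 20 bins of span, and red points are the 7 tested members. On the left BIRC6 (-1.35) and XIAP (-1.0) lie below the band, and on the right CASP2 (-1.11) lies below it and XIAP (0.59) above.

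The neighbours of the members on the chromosomes were read from the same table. CFLAR, CASP10 and CASP8 follow each other on chromosome 2. CASP10 was under the filter, with levels from 5.20 to 5.88, so only the outer genes, CFLAR and CASP8, were compared. With siNupr1 CFLAR was called lower (-0.49) and CASP8 higher (0.27), and over the 14 arrays with set means removed their levels had r = -0.476. Among all pairs of tested members BIRC6 and XIAP had the highest r, 0.837, and no other pair was above 0.473. The most like genes for the others were MALSU1 for CASP2 (0.945), ERP44 for CASP8 (0.930), CRAT for CASP9 (0.938), CAMTA1 for CFLAR (0.909) and RIGI for XIAP (0.924). All of these values share the same 14 arrays.

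Around the members, 41 further genes of the caspase route were taken as 6 lists, of which 36 were measured and 29 tested. The others are not analysed here. In EBSS against mock 5 of the 29 were called higher and 13 lower, beside 22.6% and 29.3% of all tested genes. At 9 h against 0 h it was 0 and 5 (9.19% and 15.1% of all), with siNupr1 4 and 3 (9.86% and 8.58%), with siRelA 2 and 4 (10.1% and 11.4%), and with siRelB 1 and 3 (7.58% and 8.55%). The median of the 29 was -0.08 in EBSS against mock, against 0.05 over all tested genes.

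Among the other inhibitors of the IAP family, 3 were tested. BIRC2, a ubiquitin ligase of the death receptor complexes, was lower with each siRNA: by -0.61 ± 0.09 with siNupr1 (adjusted p = 0.000186, SE, 4 pairs), -0.92 ± 0.13 with siRelA (5.16e-05) and -1.40 ± 0.13 with siRelB (8.44e-07; 2 pairs each), and these calls held in all 21 other settings. Its levels were 9.28 in mock and 8.94 in EBSS with siCtrl, 8.61 and 7.77 with siRelA, and 7.98 and 7.45 with siRelB. In the Nupr1 set they were 9.78, 9.57, 9.20 and 9.61 with siCtrl and 9.20, 8.78, 8.53 and 9.20 with siNupr1. All silenced arrays of the NF-kB set were below both siCtrl arrays. BIRC2 was also lower in EBSS against mock (-0.57 ± 0.11, adjusted p = 0.000172) and at 6 h (-0.63 ± 0.13, 0.00145). BIRC7, another member of the family, was higher in EBSS against mock by 0.33 ± 0.11 (adjusted p = 0.0201; lost with the span trend removed and without any 1 of the siRelA and siRelB arrays, up to 0.287). BIRC5 (survivin), which also serves in cell division, was lower at 6 h by -0.66 ± 0.13 (adjusted p = 0.00109).

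The modulators of caspases that fell with BIRC6 in EBSS against mock included its partner UBA6, the enzyme that loads BIRC6 with ubiquitin. UBA6 went from 8.01 in mock to 6.37 in EBSS with siCtrl, from 7.33 to 6.04 with siRelA and from 7.65 to 6.46 with siRelB. In the time course it was at 7.96, 7.71, 7.77 and 8.04 with siCtrl and at 7.63, 7.70, 7.76 and 8.20 with siNupr1. The UBA6 difference was -1.37 ± 0.11 in EBSS against mock (adjusted p = 1.25e-08, SE, 3 pairs), and between the sets it differed by 1.70 ± 0.18 (adjusted p = 2.09e-06). BIRC6 had the same directions, as did 29.3% (lower) and 16.4% (higher) of all tested genes by their calls. The siRNA comparisons differed. UBA6 was called lower with siRelA (-0.51), where BIRC6 was not (-0.10). That call was lost without the siCtrl mock, siRelA EBSS or siRelA mock array. With siNupr1 BIRC6 was called lower (-0.41) and UBA6 was not called. CUL3, a scaffold of ubiquitin ligases that also modifies CASP8, was lower in EBSS against mock by -1.27 ± 0.10 (adjusted p = 5.24e-09) and at 3 h by -0.81 ± 0.12 (0.000177). CARD8 was lower in EBSS against mock by -0.51 ± 0.11 (adjusted p = 0.000575), a call lost with the mean of its clusters (-0.11, adjusted p = 0.408).

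All 8 apoptosome and mitochondrial death factors were tested. In EBSS against mock 2 were called higher and 3 lower, beside 22.6% and 29.3% of all tested genes. With siNupr1 it was 3 and 1, beside 9.86% and 8.58%. Higher in EBSS against mock were BAK1 (0.60 ± 0.13, adjusted p = 0.000890), a pore former of the mitochondrial membrane, and BAX (0.26 ± 0.09, 0.0294). The other ones called in that comparison were lower: APAF1, the apoptosome scaffold that activates CASP9, by -0.74 ± 0.10 (7.95e-06), CYCS, cytochrome c, by -0.61 ± 0.11 (0.000146) and AIFM1 by -0.24 ± 0.08 (0.0147). The calls on BAX and AIFM1 were fragile: with the span trend removed both were lost, as was BAX without any 1 of the 6 arrays of the NF-kB set (adjusted p up to 0.426) and AIFM1 without the siRelA EBSS or siRelA mock array (up to 0.0884). With siNupr1 HTRA2, AIFM1 and BID were called higher, by 0.27, 0.25 and 0.27. These calls were all lost without any 1 of the arrays at 0, 3 and 6 h. The call on HTRA2 was also lost with the span trend removed (adjusted p of the 3 genes up to 0.147 over all settings). APAF1 was called lower with siNupr1 by -0.41 ± 0.09 (adjusted p = 0.00395). That call was lost without either 3 h array of siCtrl or siNupr1 (adjusted p up to 0.0592).

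Of the caspase substrates, 8 were tested; 5 were lower in EBSS against mock and 0 higher, beside 29.3% and 22.6% of all tested genes. ROCK1, the kinase behind membrane blebbing, was lower by -1.65 ± 0.15 (adjusted p = 3.30e-08) in EBSS against mock, and between the sets it differed by 1.94 ± 0.23 (8.12e-06). LMNB1, a nuclear lamin, was lower in both sets, by -0.75 ± 0.09 in EBSS against mock (1.64e-06) and by -1.42 ± 0.11 at 9 h against 0 h (4.80e-08). PARP1, the DNA repair enzyme, was lower by -0.48 ± 0.08 (8.96e-05) and -0.72 ± 0.10 (3.61e-05) in the same comparisons. ACIN1, which acts in chromatin condensation, and GSDME, a pore former that caspases cleave, were each at -0.51 in EBSS against mock (0.000299 and 0.000609). LMNA, another lamin, was instead called higher with siNupr1 (0.49 ± 0.08, adjusted p = 0.000558) and siRelA (0.67 ± 0.12, 0.000394). DFFA, the inhibitor of the apoptotic nuclease, was higher with siRelA by 0.37 ± 0.12 (adjusted p = 0.0264; lost without any 1 of the siCtrl and siRelA arrays of the NF-kB set, up to 0.271).

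Of the adaptors and platforms 5 were tested. CASP8AP2, which binds CASP8 and also serves histone gene expression, was lower in EBSS against mock by -1.0 ± 0.16 (adjusted p = 4.00e-05) and at 9 h by -0.98 ± 0.20 (0.00120). TRADD, an adaptor of tumour necrosis factor receptors, was higher with siRelB by 0.57 ± 0.13 (adjusted p = 0.00409; lost without the siCtrl EBSS, siCtrl mock or siRelB mock array, with adjusted p up to 0.137). The PIDD1 scaffold of CASP2 was higher in EBSS against mock by 0.28 ± 0.10 (adjusted p = 0.0297; lost with the span trend removed and without any 1 of the siCtrl and siRelB arrays of the NF-kB set, up to 0.249). PYCARD, the adaptor of inflammasomes, was higher in the same comparison by 0.33 ± 0.12 (adjusted p = 0.0241; lost with the span trend removed and without any 1 of the 6 arrays of the NF-kB set, up to 0.482). FADD, the adaptor between death receptors and CASP8, was not called in any of the 13 comparisons.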

How the data were processed

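RNA of MiaPaCa2 cells was measured on 14 Affymetrix whole-transcript arrays, 1 for each combination of siRNA and condition; it was taken with Trizol, per the labels' protocols. The values are log2 levels per transcript cluster as the authors deposited them, made with RMA per the submitters' processing notes, which also name limma, both without a version; the genome build is not given in the sources used here. RMA puts all arrays on a common scale, so a shift shared by all genes cannot be seen, and the number of arrays limits the precision.

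Of 28869 clusters, 19310 have 1 gene symbol in the platform annotation, 1752 several and 7807 none listed. The brightest cluster stood for each of 18377 genes, and 40% of genes with the lowest mean level (under 5.8) were left out. An additive model of set, siRNA and condition, with 5 residual degrees of freedom, was fitted to all 14 arrays. It was fitted with limma 3.58.1 in R 4.3.3 (lmFit, and eBayes with an intensity trend) and assumes that a difference is the same in every pair. For the slope over hours a term of siNupr1 by hours was added. For the changes between media, terms of siRelA by EBSS and siRelB by EBSS were added, which leaves no misfit within the NF-kB set. The fit was run on data simulated from the additive model itself, with equal pairs and independent noise. Such data cannot test whether the pairs are equal in the real arrays. The contrast between the sets, the slope and the changes between media were not simulated. The adjusted p is Benjamini-Hochberg over 11026 genes, and intervals are 95%. Alternatives were no filter, the mean of a gene's clusters, further quantile normalization, array weights, no trend, each set alone, the gene span trend removed, and each array left out; the dimmer CFLAR cluster was added after seeing the data. Members, lists and tests were chosen with earlier results of these data known. The text names all members and draws, for each list and comparison, on the up to 4 genes with the largest called change, without printing every comparison; AIFM1 and PARP1 in EBSS against mock, and FADD, were added after their values were seen. Like patterns are the genes with the highest Pearson r over 14 arrays after set means were removed. Promoters are from RefSeq, GRCh38.p14.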

Additional observations from a re-analysis of the deposited data

Results flagged for a closer look

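For 3 members the starvation difference was not the same in both sets by a test of the difference itself (9 h against 0 h in the Nupr1 set minus EBSS against mock in the NF-kB set, limma, adjusted over 11026 genes). Of all tested genes 16.4% were called higher and 8.11% lower in the same contrast. BIRC6 was lower by -1.35 in EBSS than in mock, in 3 of 3 pairs, and was at 0.13 at 9 h against 0 h; the contrast was 1.47 ± 0.17 (SE, adjusted p = 5.66e-06). XIAP was lower by -1.0 in EBSS than in mock, in 3 of 3 pairs, and higher by 0.59 at 9 h, in 2 of 2 pairs. Those 2 pairs were unequal, at 0.18 with siCtrl and 0.997 with siNupr1. Without the siNupr1 0 h array the difference at 9 h was 0.21 and was not called. The contrast for XIAP was 1.59 ± 0.24 (adjusted p = 6.30e-05). CASP2 was at -0.24 in EBSS against mock and lower by -1.11 at 9 h, in 2 of 2 pairs; the contrast was -0.87 ± 0.16 (adjusted p = 0.000399). Set, reference condition (mock at 9 h or 0 h) and handling cannot be told apart here.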

How the results depend on the processing

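Each condition has 1 array, so every call rests on a model without replicates. No paired analysis was possible because each group holds 1 array and every replicate number is 1, so that none with the replicate number as a block could be fitted; the pairs of arrays in the text are matched by siRNA or condition instead, and the model uses that matching. Of 91 differences of the 7 tested members, 24 were past the threshold. Over up to 22 other settings 10 of these stayed past it in every one and 14 were lost in at least 1, 10 of them only when an array was left out; of the 67 others, 8 passed in at least 1 setting. Of the values past the threshold 0 turned their sign, and a value past it under neither setting was counted as unchanged whatever its sign. Over all tested genes, array weights moved the number called from 1361 to 2173 at 3 h, from 2675 to 1517 at 9 h, from 809 to 414 at 9 h against 3 h, from 2033 to 3271 with siNupr1, from 4 to 39 for the siRelA change between media and from 0 to 6 for the siRelB change. With each set fitted alone 841 genes were called for the slope over hours, against 0; without the intensity trend 0, and with the span trend removed 2, were called for the siRelA change. Leaving out 1 array gave 356 to 1710 calls at 3 h, 823 to 2990 at 6 h, 1639 to 2703 at 9 h, 117 to 1012 at 9 h against 3 h, 840 to 2403 with siNupr1, 1120 to 2720 with siRelA, 761 to 2151 with siRelB, 313 to 1442 for siRelB against siRelA, 1743 to 2994 between the sets, 0 to 66 for the slope and 4 to 25 for the siRelA change. The sets fitted alone give no difference between them, and some changes between media could not be fitted without an array of the NF-kB set.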

Other observations

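Of the other caspase genes with a cluster of their own, CASP4, an inflammatory caspase, was the one bright enough to test. Its level was between 8.09 and 8.84 (median 8.34) on the 6 arrays of the NF-kB set and between 6.76 and 7.30 (median 7.07) on the 8 arrays of the Nupr1 set, so that the sets did not overlap. CASP1 (3.20 to 3.95 and 2.82 to 3.02), CASP5 (2.93 to 3.48 and 2.94 to 3.18), CASP10 (5.20 to 5.88 and 5.38 to 5.88) and CASP14 (3.54 to 4.0 and 3.30 to 3.71) had means under the filter level.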
